A study of Mus musculus with 6 samples.

Results

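The genes described here are those of the extracellular matrix, of cell adhesion to it, and of the proteases that cut it. They were found by name in a table of the authors, as mRNA probes (accessions beginning NM) whose gene symbol starts with Col and a digit, Lama, Lamb, Lamc, Itga, Itgb, Mmp, Timp, Adam, Lox, Fbln, Fbn, Thbs or Cdh. Spp1 and Ccn5 were left out. This gave 8 genes of the 2114 named mRNA genes in the table, each with 1 probe, so that the choice of the brightest probe per gene never arose. The table is preselected. It holds probes that the authors had picked as different between the groups on these same arrays (the methods state a fold of 2 and a p of 0.05, for lncRNAs), so the 8 genes differ between the groups by the way they were chosen, and neither their number past that threshold nor their separation is evidence of a difference.

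RNA came from the liver of C57Bl/6 mice at 12 months. The design compared 3 arrays of Apcfl/fl mice with hepatocellular carcinoma (HCC) with 3 of Apc+/+ mice with normal liver and no tumour. The Apc protein promotes the breakdown of β-catenin and so restrains Wnt signalling. Apcfl/fl mice carry, per the study's methods, a hypomorphic allele in homozygous form, for which no Cre is named in this comparison. Neither the labels nor the methods give the sex of the mice or how much non-tumour liver each HCC piece held. No probe for Apc is described here, so the genotype could not be checked on the arrays.

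The extracellular matrix is a mesh of collagens, laminins, glycoproteins and proteoglycans. In liver it is made mainly by stellate cells and portal fibroblasts, and it is remodelled when a liver scars or a tumour grows. Integrins tie cells to this mesh, cadherins tie cells to each other and bind β-catenin at the membrane, and metalloproteases of the Mmp, Adam and Adamts families cut matrix or cell-surface proteins. Adam proteins are membrane-bound with a disintegrin domain, and Adamts proteins are secreted with thrombospondin repeats.

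Compared with its name, the group was narrow. RefSeq (GRCm38.p6) lists 216 protein-coding genes with these symbol prefixes, and the 8 in the table were 5 of 59 Adam and Adamts genes, 1 of 44 collagens (Col6a1), 1 of 28 genes of the Cdh prefix (Cdh4) and 1 of 31 of the Itga and Itgb prefixes. None of 11 laminins, 27 Mmp and Timp genes or 16 Lox, Fbln, Fbn and Thbs genes was named. The share of all protein-coding genes that the table names was not counted, so these numbers do not show that a family is rare in it. Genes outside the table have no name in the files used here, so their levels were not analysed. The gene of the integrin prefix was Itgb3bp, which encodes a protein that binds the tail of integrin β3 and is also a centromere protein. It is not an integrin, and no integrin was among the 8 genes. Adam1a and Adam4 are known as genes of male germ cells rather than of the matrix. The genes that act on or in the matrix by their known roles were therefore Adam15, Adamts12, Adamts14 and Col6a1.

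Levels given per array are the normalised log2 intensities of the authors' table, and the level of 1 probe cannot be set against that of another. Changes, standard errors and adjusted p-values come from limma fitted to the scanner intensities of all 45640 tested probes. Arrays had median spot intensities of 38.9 to 61.8 and no saturated probe spot. The first and second Apcfl/fl replicates were apart by less than the technical noise, with a mean chi-square per probe of 0.774 where their comparison with replicate 3 gave 14.9 and 15.1. These 2 arrays were averaged into 1 sample, and the fit thus set 2 Apcfl/fl samples against 3 Apc+/+ samples (of which replicates 2 and 3 had a mean chi-square of 1.99, against 6.37 and 7.56 with replicate 1). The methods give RNA from the livers of 3 mice in each group. With arrays this close, p-values measure only the spread between these samples, which may be technical. In whole liver, fewer cells of a type and less RNA per cell cannot be told apart. All 6 arrays share 1 scan time. Slide row 1 held the Apcfl/fl arrays and Apc+/+ replicate 1, and row 2 held Apc+/+ replicates 2 and 3.

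Promoters are shown for Adamts14, the procollagen-trimming protease, for Adam15, the integrin-binding Adam protease, and for Col6a1, the sole structural matrix gene. Each is the stretch of 120 bases before the annotated start, 5′ to 3′ on the strand of the gene, from RefSeq (GRCm38.p6, minus strand), at chr10:61273420-61273539 for Adamts14, chr3:89350029-89350148 for Adam15 and chr10:76726045-76726164 for Col6a1. Capitals mark matches to the GC box (GGGCGG on either strand) in Adamts14 and Adam15 and to the AP-1 motif (TGANTCA on either strand) in Col6a1.
Adamts14: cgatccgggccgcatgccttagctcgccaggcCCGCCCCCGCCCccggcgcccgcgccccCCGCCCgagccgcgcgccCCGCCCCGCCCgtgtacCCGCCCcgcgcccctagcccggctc
Adam15: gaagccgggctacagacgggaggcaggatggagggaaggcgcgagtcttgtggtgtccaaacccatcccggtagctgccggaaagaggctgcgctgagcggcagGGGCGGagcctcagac
Col6a1: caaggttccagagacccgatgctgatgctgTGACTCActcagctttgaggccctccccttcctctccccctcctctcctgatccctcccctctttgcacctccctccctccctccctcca

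RefSeq promoters were at hand for 6 of the 8 genes, and the 250 bases before the start were searched on both strands. The GC box occurred 6 times before Adamts14, where some matches overlap, and 1 time before Adam15, and 32.7% of all 32851 promoters in the table held it. The AP-1 motif occurred before Col6a1 alone, with its first base at position -90 from the start, and 6.75% of promoters held it. Neither form of the TCF/LEF motif searched, CTTTGAT (3.21% of promoters) or CTTTGAA (4.46%), occurred before any of the 6 genes. The promoters also differed in composition. That of Adamts14 was 76.4% G and C with 35 CG dinucleotides, that of Adamts12 63.2% with 6, that of Col6a1 56% with 3 and that of Adam1a 38% with 4. These matches describe the sequence and say nothing about binding.

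Between Apcfl/fl HCC and Apc+/+ liver the 8 genes had changes of both signs. Adamts14, Itgb3bp and Adam4 were higher in HCC (3 of 8 genes), and Adam15, Cdh4, Adamts12, Col6a1 and Adam1a were lower (5 of 8), where 57.3% of the 2280 mRNA probes of the table were higher. With 5 samples the fold ranged from 1.95 for Adam4 to 2.83 for Adamts14. Without regard to direction the median log2 change was 1.21 for the 8 genes and 1.48 for the mRNA probes of the table, and with direction it was -1.04 and 1.05, against 0.06 for all tested probes. In the authors' columns all 8 genes had arrays that did not overlap between the groups. In the intensities normalised here, the same held for 99.9% of the mRNA probes of the table and 33.8% of all tested probes. The separation of the 8 therefore reads as their selection.

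By limma, 0 of the 8 genes passed the adjusted threshold, which asks for a fold of 2 and for an adjusted p under 0.05. Their adjusted p-values ran from 0.0845 to 0.235. Of all tested probes 1.92% passed, as did 19.4% of the table's mRNA probes. All 8 genes had an unadjusted p below 0.05, which is no evidence of a difference, as the table was picked on these same arrays. The share of probes below that p whatever their fold was not counted. At the threshold of the methods, an unadjusted p of at most 0.05 with a 2-fold change, 6 of the 8 genes passed, against 90.2% of the mRNA probes of the table. Adam4 and Adam1a fell short of it on fold. With the 6 arrays taken as 6 samples, 3 of the 8 genes passed the adjusted threshold, namely Adamts12, Adam15 and Adamts14, where 68.9% of the mRNA probes of the table did.

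**Figure D1:**
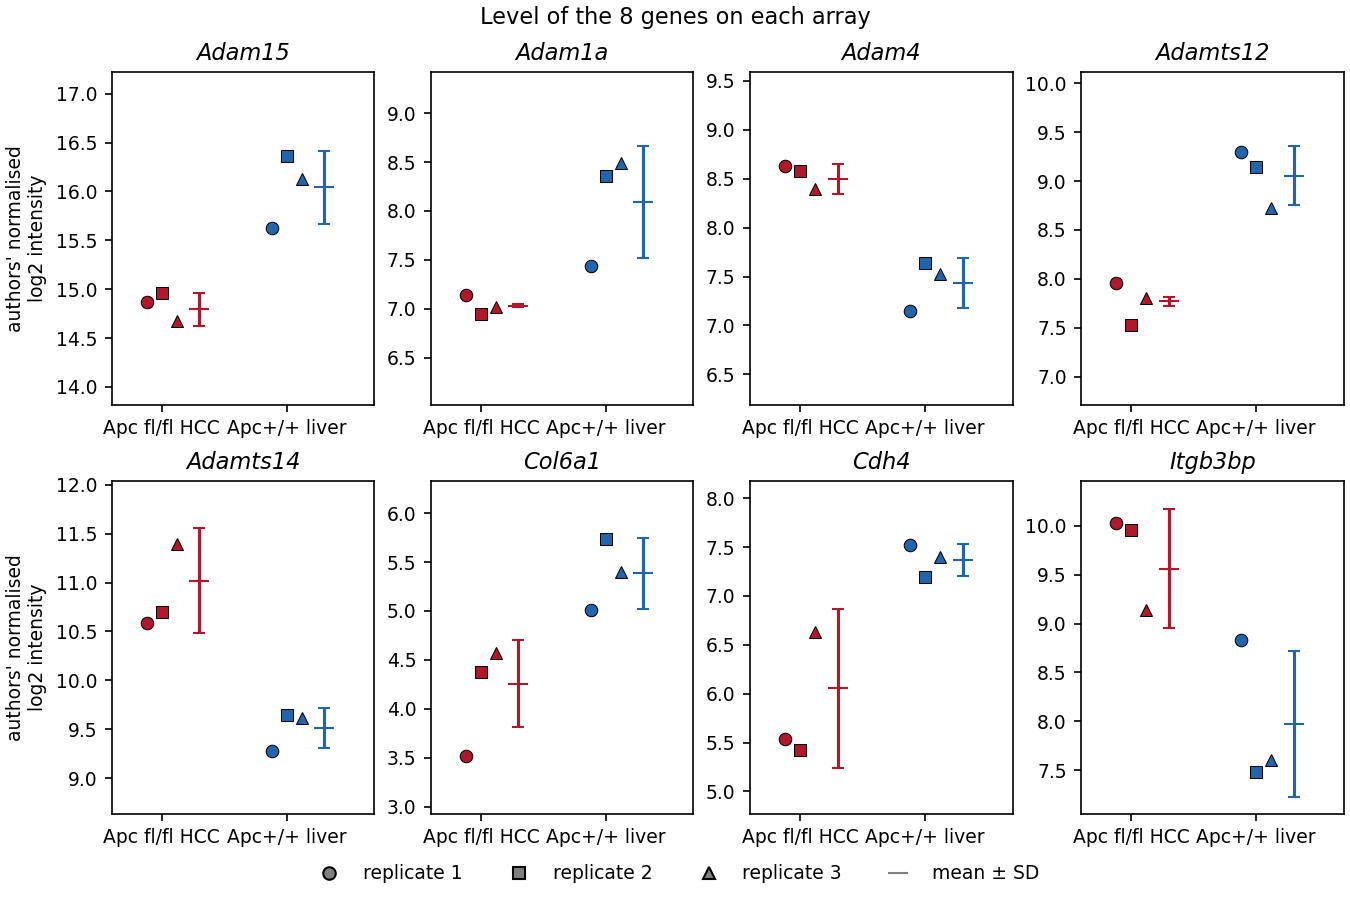
Level of each of the 8 genes on each of the 6 arrays. The vertical axis of each panel is the authors' normalised log2 intensity over a span of the same height, red marks are Apcfl/fl HCC, blue marks are Apc+/+ liver, shapes give the replicate number, and the bar is the mean ± SD with Apcfl/fl replicates 1 and 2 averaged first (n = 2 and n = 3). In every panel the groups are apart, from a gap of 0.30 for Adam1a and Itgb3bp to 0.94 for Adamts14.

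Of the secreted Adamts proteases 2 were named, with changes of unlike sign that did not pass the adjusted threshold. Adamts14 is a procollagen N-proteinase, which trims the amino end of fibrillar procollagens. Its log2 intensity was 10.59, 10.70 and 11.40 on Apcfl/fl replicates 1 to 3 and 9.28, 9.65 and 9.62 on Apc+/+ replicates 1 to 3. All HCC arrays lay above all control arrays, and Apcfl/fl replicate 3 was the highest. The log2 change was 1.50 (SE 0.31, adjusted p 0.0874), a fold of 2.83. It was 1.11 without Apcfl/fl replicate 3 and 1.90 with replicate 3 as the sole HCC sample.

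Adamts12 is a secreted metalloprotease that cuts cartilage oligomeric matrix protein. In HCC its log2 intensity was 7.95, 7.53 and 7.80 in the order of the replicates, and in Apc+/+ liver it was 9.30, 9.15 and 8.72. The HCC arrays all lay below the control arrays, and Apcfl/fl replicate 3 lay between replicates 1 and 2. The log2 change was -1.17 (SE 0.23), and its adjusted p of 0.0845 was the lowest of the 8 genes.

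Of the membrane-bound Adam genes, Adam15 encodes a metalloprotease with a disintegrin domain that binds integrins. Its log2 intensity on replicates 1 to 3 was 14.87, 14.96 and 14.67 in HCC and 15.63, 16.36 and 16.13 in Apc+/+ liver. The HCC arrays were close together and all below the controls, of which replicate 1 was the lowest. The log2 change was -1.28 (SE 0.28, adjusted p 0.102), a fold of 2.43. With 6 arrays the adjusted p was 0.0275 for Adam15, 0.0233 for Adamts12 and 0.0319 for Adamts14.

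Adam4 and Adam1a, both known from sperm and testis, were measured well above background on all 6 arrays. Adam4 was at 8.63, 8.58 and 8.39 in HCC and 7.15, 7.64 and 7.52 in Apc+/+ liver. Its log2 change was 0.96 (SE 0.23, adjusted p 0.116). Adam1a was at 7.14, 6.95 and 7.02 in HCC and 7.44, 8.35 and 8.49 in Apc+/+ liver. The HCC arrays were nearly equal, and Apc+/+ replicate 1 lay much closer to them than to the other 2 controls. Its log2 change was -0.98 (SE 0.35), with an adjusted p of 0.235, the highest of the 8 genes. Adam1a has a close paralogue, Adam1b, and whether its probe also reads that transcript was not tested.

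Col6a1, the α1 chain of collagen VI, a beaded-filament collagen around cells and basement membranes, was close to background. Its log2 intensity was 3.51, 4.37 and 4.57 in HCC and 5.01, 5.74 and 5.40 in Apc+/+ liver. It was well above background on 2 of 3 arrays in each group. On the scale of the fit both group means, 3.91 and 5.02, were below the brightest of the 20 negative-control probes, which averaged 5.50. Both means thus lie within the range of signal from probes without a target. The log2 change was -1.11 (SE 0.32, adjusted p 0.162), and its size is uncertain. With normexp background correction the change was -0.31.

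Cdh4 encodes R-cadherin, a classical cadherin known mainly from retina and nervous tissue. It was at 5.53, 5.43 and 6.63 in HCC and 7.52, 7.19 and 7.40 in Apc+/+ liver. The HCC arrays were below the controls, and Apcfl/fl replicate 3 stood 1.15 above the mean of replicates 1 and 2, the widest such gap of the 8 genes. The log2 change was -1.26 (SE 0.37, adjusted p 0.174). It was -1.81 without replicate 3 and -0.70 without replicates 1 and 2. The Cdh4 probe was above the brightest negative-control probe on 4 of the 6 arrays.

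Itgb3bp was at 10.03, 9.95 and 9.13 in HCC and 8.83, 7.48 and 7.60 in Apc+/+ liver. The groups were 0.30 apart, with Apcfl/fl replicate 3 the lowest HCC array and Apc+/+ replicate 1 the highest control. The log2 change was 1.46 (SE 0.48, adjusted p 0.210), a fold of 2.75, and in this fit it had the largest SE of the 8 genes. In the authors' columns its change was 1.59, against 1.51 for Adamts14, and with 6 arrays 1.60, against 1.37.

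The spread within the groups was not shared evenly by the genes. Apcfl/fl replicates 1 and 2 differed by at most 0.86, which was for Col6a1. Replicate 3 departed from their mean by 0.75 for Adamts14, by 0.63 for Col6a1, by 1.15 for Cdh4 and by -0.86 for Itgb3bp, whereas for the other 4 genes it lay within 0.24. For 5 of the 8 genes it stood on the side of the controls. Apc+/+ replicate 1, which shared the slide row of the HCC arrays, stood on the side of the HCC arrays for 4 of the 8 genes, with a distance from the mean of the other controls of 1.29 for Itgb3bp, -0.98 for Adam1a, -0.61 for Adam15 and -0.56 for Col6a1.

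With the slide row as a block, which sets the HCC samples against Apc+/+ replicate 1 in row 1 alone, the log2 change was 0.69 for Itgb3bp, -0.38 for Adam1a, -0.88 for Adam15 and -0.73 for Col6a1. It was 1.73 for Adamts14, 1.23 for Adam4, -1.39 for Adamts12 and -1.39 for Cdh4. All 8 kept their sign. Adjusted p-values in this fit ran from 0.260 for Adam4 to 0.706 for Itgb3bp. The part of the slide row in these values was not tested further, because row 2 held controls alone.

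**Figure D2:**
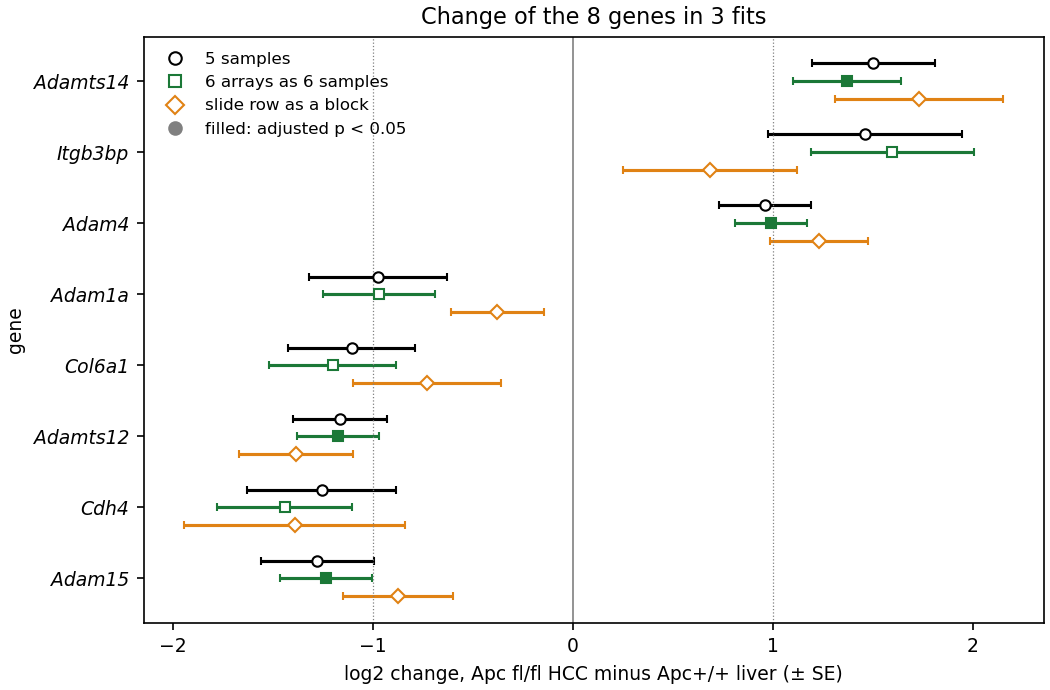
Log2 change of each gene, Apcfl/fl HCC minus Apc+/+ liver, on the horizontal axis with bars of ± SE, in the fit with 5 samples (circles), with 6 arrays as 6 samples (squares) and with the slide row as a block (diamonds). Filled marks have an adjusted p below 0.05 and dotted lines stand at a 2-fold change. Filled marks appear with 6 arrays alone, for Adamts14, Adam4, Adamts12 and Adam15.

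Genes with related roles but other names were drawn from lists of matrix, protease, adhesion and TGF-β genes. Of 200 such genes 25 were named in the table, which again holds only probes the authors had called, 15 higher and 10 lower in HCC. The adjusted threshold was passed by 4 of the 25, against 19.4% of the mRNA probes in the table. With 6 arrays 15 of the 25 passed, where 68.9% of the table's mRNA probes did. Without any 1 of the Apc+/+ arrays, or with the slide row as a block, none of the 25 passed by limma. Of all 45640 tested probes, 0, 1 and 0 passed without Apc+/+ replicates 1, 2 and 3, and 0 passed with the block. Those fits therefore say nothing about the 25 genes in particular. Without Apcfl/fl replicate 1 or 2 the number of the 25 was 5 and 4, where 973 and 768 of all tested probes passed.

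Pcolce, the procollagen C-proteinase enhancer, which speeds the trimming of the other end of procollagen from that cut by Adamts14, rose in HCC. Its log2 intensity was 15.51, 15.48 and 16.38 in HCC and 12.92, 13.41 and 13.11 in Apc+/+ liver, with Apcfl/fl replicate 3 the highest array, as for Adamts14. The log2 change was 2.91 (SE 0.34, adjusted p 0.0353). Its relative Pcolce2 had a change of -1.48 (adjusted p 0.0839) and P4ha1, a prolyl hydroxylase of collagen, one of 1.14 (adjusted p 0.244).

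Hyal1, a hyaluronidase, fell in HCC. It was at 9.55, 9.63 and 9.20 in HCC and 11.77, 11.19 and 11.38 in Apc+/+ liver, with a log2 change of -2.06 (SE 0.27, adjusted p 0.0414). Ctss, a lysosomal cysteine protease that degrades elastin, had a change of 2.79 (adjusted p 0.0616) and Meltf, a cell-surface iron-binding protein, one of 2.26 (adjusted p 0.198). None of 21 listed genes of proteoglycans and hyaluronan was named. For Nid1, P4ha1, Pcolce2, Meltf, Tln2 and Actn4, and for the markers Lrat, Hand2 and Prom1, the mean of the lower group did not reach the brightest negative-control probe. The sizes of these changes are uncertain. For P4ha1 (fit means 5.07 in HCC and 3.93 in Apc+/+ liver) and Hand2 (5.13 and 4.02) the mean of the higher group did not reach it either.

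Of 13 basement membrane genes 2 were named and of 31 other glycoprotein genes 3, and none of these 5 passed the adjusted threshold. Nid1, nidogen, which links laminin to collagen IV, had a log2 change of 1.20 and Sparc, a collagen-binding protein, one of 0.96 (adjusted p 0.242 and 0.294). Ecm1, Postn and Igfbp7 had changes of -4.14, -1.85 and -0.99, with adjusted p-values of 0.0501, 0.209 and 0.175. Ecm1, extracellular matrix protein 1, was at 10.25, 10.33 and 12.11 in HCC and 14.73, 15.27 and 15.39 in Apc+/+ liver. Its difference was the largest of the matrix proteins named, although it missed the threshold narrowly. The adjusted p of Ecm1 was 0.00989 with 6 arrays, which counts Apcfl/fl replicates 1 and 2 as separate samples. With the slide row as a block it was 0.289.

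At cell contacts, Src, a kinase of focal adhesions, rose from 9.90, 9.99 and 9.92 in Apc+/+ liver to 13.75, 13.66 and 13.95 in HCC (log2 change 4.06, SE 0.19, adjusted p 0.0125). Nectin1, an adhesion molecule of adherens junctions, fell from 14.29, 14.74 and 14.95 to 12.79, 12.82 and 12.66 (log2 change -2.03, SE 0.27, adjusted p 0.0433). Its relative Nectin2 had a change of the other sign, 1.22 (adjusted p 0.0720), as had the desmosomal Pkp2 at 1.03. The focal adhesion genes Zyx, Actn4 and Tln2 had changes of 1.22, 0.86 and -0.97, and the receptors Hmmr, Cd47 and Sdc4 had 1.81, 1.25 and -1.79. None of these 6 passed the adjusted threshold. Of the TGF-β genes, the ligands Gdf15 and Inhbb had changes of 1.34 and 1.12, and the ligand Bmp2 and the pathway inhibitor Smad7 had -2.59 and -2.28, without passing it.

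**Figure D3:**
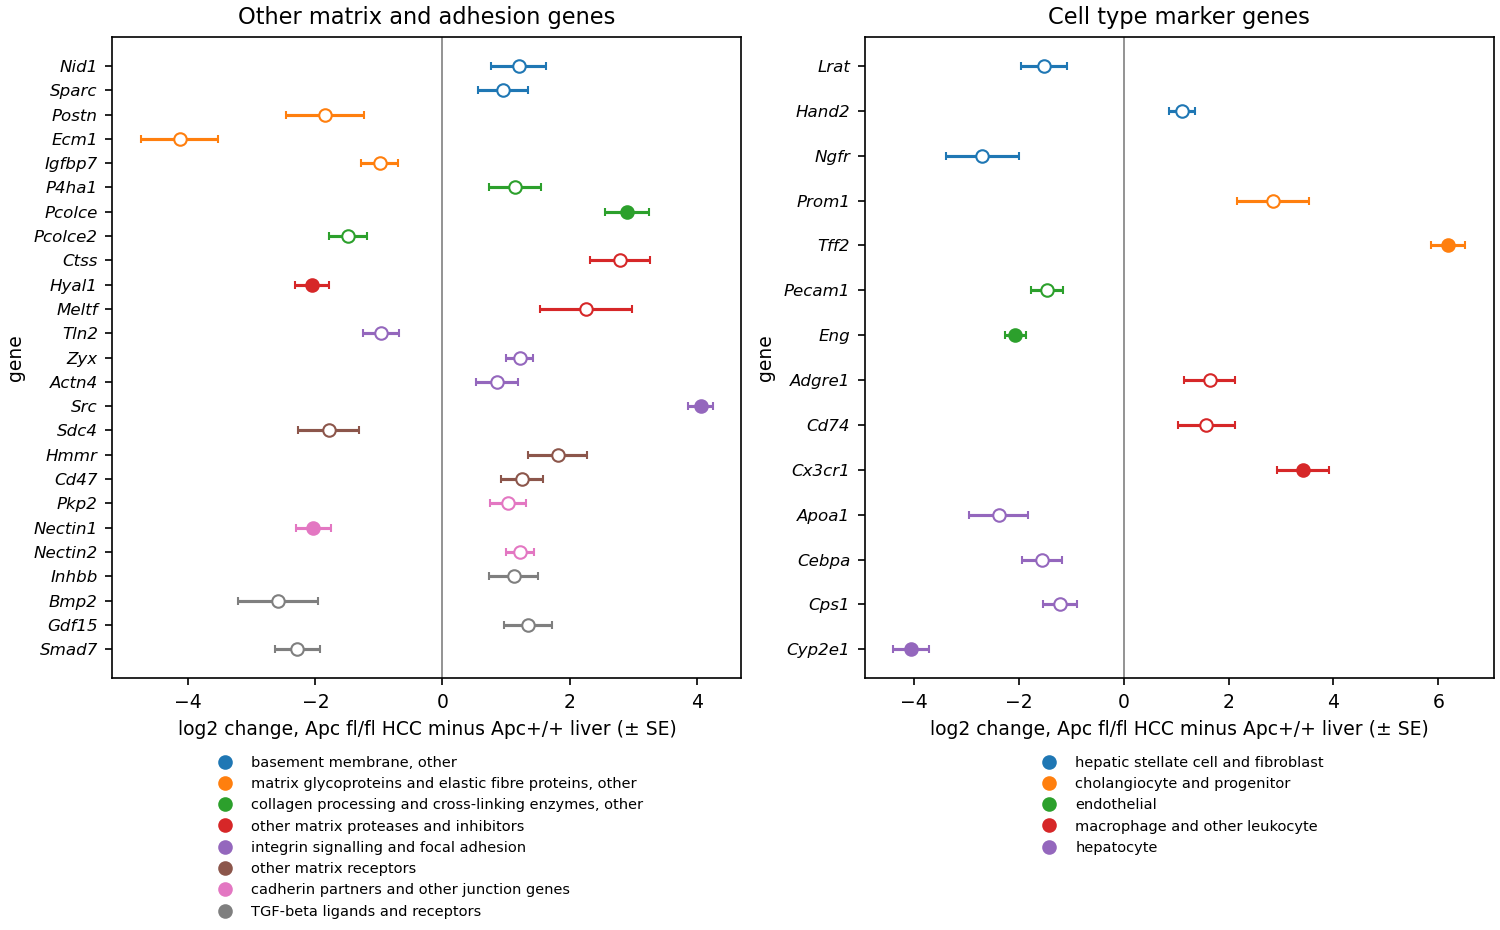
Log2 change, Apcfl/fl HCC minus Apc+/+ liver, on the horizontal axis with bars of ± SE, for 25 other matrix and adhesion genes (left) and 14 cell type markers (right) named in the authors' table, coloured by list. Filled marks passed the adjusted threshold, 4 in each panel, among them Src at 4.06 and Tff2 at 6.19.

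Of 92 markers of the cell types that make or border the matrix, 14 were named, likewise from the preselected table. The adjusted threshold was passed by 4 of the 14, Tff2, Cyp2e1, Eng and Cx3cr1, against 19.4% of the mRNA probes in the table. With 6 arrays 11 of the 14 passed, where 68.9% of the table's mRNA probes did. None of the 14 passed by limma with the slide row as a block or without any 1 of the Apc+/+ arrays. In each of those fits at most 1 of all 45640 tested probes passed. With the block the adjusted p was 0.144 for Tff2, 0.157 for Cyp2e1, 0.163 for Eng and 0.266 for Cx3cr1. Of 17 stellate cell and fibroblast markers 3 were named, Lrat and Ngfr with changes of -1.52 and -2.70 and Hand2 with 1.11. The sum of their linear intensities, nearly all of it from the Ngfr probe, was 692.5 to 2631 on the HCC arrays and 4971 to 9882 on the control arrays. Such a sum weights probes by their brightness and is no level of a cell type. Where the named probes of a list all changed in the same direction, its sums were bound to differ, as each probe had been picked as different. Defining markers of activated fibroblasts such as Acta2 and Pdgfrb were not among the named probes. Of 16 endothelial markers Eng fell by 2.07 (adjusted p 0.0224) and Pecam1 had a change of -1.46, with sums of 211.7 to 266.3 in HCC and 948.8 to 1163 in controls.

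Of 24 leukocyte markers 3 were named. Cx3cr1 rose by 3.42 (adjusted p 0.0482), and Adgre1 and Cd74 had changes of 1.64 and 1.57, with sums of 12450 to 15250 in HCC and 2367 to 3530 in controls. The largest part of the sum came from Cd74 on Apcfl/fl replicates 1 and 2 and from Cx3cr1 on replicate 3. Of 15 cholangiocyte and progenitor markers Tff2 rose by 6.19 (adjusted p 0.0125) and Prom1 had a change of 2.85, with sums of 6281 to 11180 against 116.3 to 140.8, in HCC nearly all from the Tff2 probe. Of 20 hepatocyte markers Cyp2e1 fell by 4.06 (adjusted p 0.0194), and Apoa1, Cebpa and Cps1 had changes of -2.38, -1.56 and -1.21. Their sums were 34690 to 65650 in HCC and 184400 to 252800 in controls. The part of these cell types in the levels of the 8 genes was not tested.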

How the data were processed

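Liver RNA was depleted of rRNA, amplified with random primers, labelled with Cy3 and hybridised to the Arraystar mouse lncRNA array V.2.0, which also carries mRNA probes. The authors extracted the scans with Agilent Feature Extraction 11.0.1.1, and the deposited scanner files hold processed spot intensity on a linear scale, not normalised between arrays. A deposited table gives 4197 probes picked by the authors as different between the groups, in log2 units after quantile normalisation in GeneSpring GX. Of its 2280 mRNA probes, 2239 had an accession in RefSeq (GRCm38.p6).

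Here, control, negative-control and outlier-flagged spots were left out, log2 processed intensities of 59631 probes were quantile normalised, and 45640 probes well above background on at least 3 of 6 arrays were tested with limma 3.58.1 (R 4.3.3; lmFit, eBayes, two-sided, without covariates). The change is HCC minus control, and p was adjusted by Benjamini-Hochberg over every tested probe. Arrays of a group with a mean chi-square below 1 against the error estimate of Feature Extraction were averaged. The threshold was an adjusted p below 0.05 and a 2-fold change. Every one of the 8 genes was named, and values on each array were given for them and for listed genes past that threshold. Ecm1 was given per array after its values were seen. Symbols that RefSeq no longer uses were left out of list sizes. Members and lists were chosen with earlier results of these data known. The number of arrays limits the precision. The fitting script was tested on simulated data. Alternatives covered samples, background correction, scaling, filters, blocks, variance model, test and left-out arrays.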

Additional observations from a re-analysis of the deposited data

How the results depend on the processing

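All 8 genes kept the sign of their change in every fit, and in the authors' normalised columns, where the change differed from that of the fit by at most 0.13. Of 135 comparisons of a gene with an alternative that gives a test, 127 stayed short of the adjusted threshold and 8 came to pass it. The number of the 8 genes past the adjusted threshold, 0 with 5 samples by limma, became 3 with 6 arrays as 6 samples, 2 with normexp background correction (Adam15 and Adamts14), 2 under the filter that asks for signal well above background on each of the 6 arrays (Adamts12 and Adamts14, of 7 genes tested) and 1 by eBayes with trend and robust (Adamts12, adjusted p 0.0489). It remained 0 without any 1 array, with 75th percentile scaling, with Apc+/+ replicates 2 and 3 also averaged, without a filter, and by the t-test of the methods after Benjamini-Hochberg adjustment. The number past the threshold of the methods, 6, was 5 or 6 without any 1 array other than Apcfl/fl replicate 3. It was 3 with normexp, 3 in the fit that blocks on slide row and 4 by the t-test of the methods. Of all tested probes, 5118 passed that threshold with 5 samples, 2983 with normexp, 3964 with the slide row as a block and 3518 by the t-test. The setting with Apcfl/fl replicate 3 alone as the HCC sample (without replicates 1 and 2 together) was chosen after seeing the data. With the replicate number as a block on 6 arrays, 0 of the 8 genes passed the adjusted threshold and 6 that of the methods; same-numbered arrays did not deviate together (r 0.0587, -0.0686 and 0.0356 across probes), so the numbers were not taken as pairs. Over the alternatives the adjusted p ranged from 0.0233 to 0.266 for Adamts12, from 0.0319 to 0.296 for Adamts14, from 0.0275 to 0.389 for Adam15 and from 0.0668 to 0.706 for Itgb3bp. Of the 45640 tested probes, 877 passed with 5 samples, 3440 with 6 arrays, 1651 with normexp and 1900 with trend and robust. The filters change the number tested: 277 of 59631 probes passed without a filter and 1966 of 29700 with the strict filter. With the slide row as a block, or with Apc+/+ replicates 2 and 3 averaged, 0 passed. By the t-test of the methods 3 passed. Leaving out Apc+/+ replicate 1 or 3 gave 0, and leaving out replicate 2 gave 1. The cause of these differences was not tested. Where a single array stands for the HCC group, it is assumed to vary like the controls. Averaging several probes of a gene could not be tried, as each of the 8 genes had 1 probe in the table. Whether the array holds other probes for them could not be seen, as probes outside the table have no gene name here.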
